A study of Mus musculus with 2 samples.

Results

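The genes described here are 10 receptors, bridging proteins and engulfment adaptors with which phagocytes take up apoptotic cells. They are the receptors Itgb5, Axl, Mertk, Tyro3 and Timd4, the bridging proteins Gas6, Pros1 and Mfge8, and the engulfment adaptors Elmo1 and Dock1. They were chosen by gene symbol and not by their values, though with earlier results of these data known. They make up 10 of the 22886 genes in the tables of both libraries. Each of the 10 symbols stood on 1 line, so that no values had to be summed.

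The series holds 2 RNA sequencing libraries, 1 for each condition, from WT (wild type) C57BL/6 mice with a subcutaneous LLC tumor, that is, Lewis lung carcinoma, a transplantable lung tumor of the mouse. The mice of the vehicle library received a vehicle injection, and those of the clodronate library received clodronate, a drug that kills phagocytes when it is given inside liposomes. The labels describe the cells as aerobic tumor cells sorted by flow cytometry, while the growth protocol in the same labels names EML cells, a blood progenitor line, which conflicts with that. The gate, the number and age of the mice, the dose, the carrier and the time after injection are not given in the sources used here.

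Although the labels name tumor cells, both libraries were rich in transcripts of macrophages. The 14 macrophage markers summed to 33746 RPKM in the vehicle library and 30211 RPKM in the clodronate library, and all 14 were at 10 RPKM or more in at least 1 library. The 9 epithelial and tumor markers summed to 14.7 and 11.0 RPKM, and 5 of them, Epcam, Krt19, Krt5, Krt14 and Cldn4, were listed at 0 in both. Of the rest, Cdh1 had 6.14 and 6.44 RPKM and Krt8 had 3.67 and 1.33 RPKM. Krt18 had 2.97 and 3.19 RPKM, and Cldn7 had 1.94 RPKM in the vehicle library and 0 in the clodronate library. Whether LLC cells express these epithelial genes was not tested, so their low values do not say how many tumor cells were in the libraries. The libraries are therefore named by their injection only. In such a mixed sample, fewer cells of a type and less RNA per cell cannot be told apart.

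Levels are RPKM, read numbers divided by transcript length and library size, so that levels of different genes can be ordered. The tables give no read totals, but their low values rise in steps. With a total of 13760000 reads for vehicle and 11220000 reads for clodronate, and with 200 nt taken off each transcript's length, 72.2% of 654 low loci and 73.8% of 1232 low loci fell within 0.1 of a whole number of reads. Over all totals tried, the median share was 17.1% and 16.8%. If the smallest step is 1 read, these totals give the reads behind each level, and the intervals below are 95% counting intervals from those reads (exact Poisson for a level, exact Clopper-Pearson for a ratio). They cover counting error only, since PCR reads without molecular identifiers are not independent molecules, and they hold nothing of the spread between mice, for which 1 library per condition gives no value and no test.

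**Figure D1:**
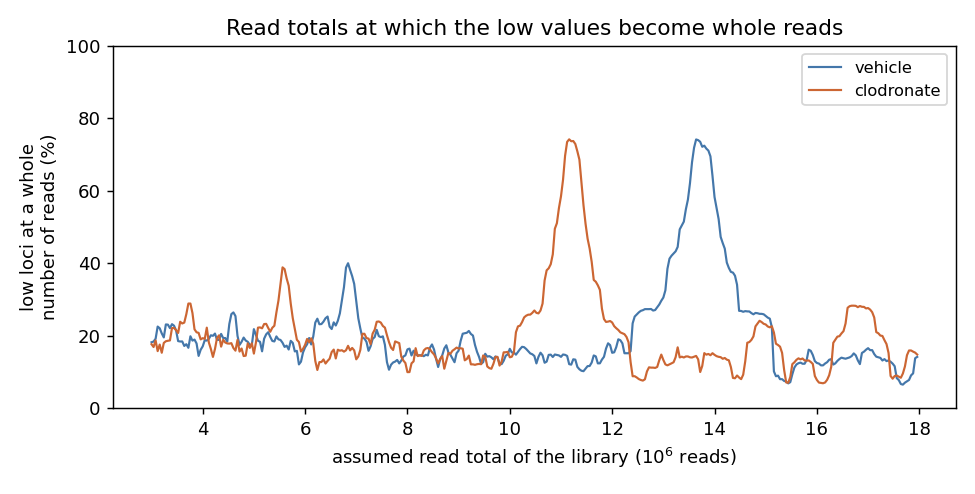
Share of low loci that come out at a whole number of reads (percent, vertical axis) for each assumed read total of a library (horizontal axis, in units of 1000000 reads), in the vehicle library (blue) and the clodronate library (orange). Each curve has its main peak above 70%, near 13.76 units for vehicle and near 11.22 units for clodronate.

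A dying cell exposes phosphatidylserine, a lipid that healthy cells keep on the inner face of their membrane, and phagocytes read it as a signal to engulf. Some receptors, such as TIM-4, bind the lipid directly, while the TAM receptor tyrosine kinases (Tyro3, Axl and Mertk) and the integrins αvβ5 and αvβ3 bind it through soluble bridges, GAS6 and protein S for the TAM receptors and MFG-E8 for the integrins. Downstream, the ELMO1 and DOCK1 proteins form an exchange factor for the GTPase RAC1, which drives the actin changes that close the phagocytic cup. Macrophages use this pathway, called efferocytosis, to clear dead cells without inflammation, and MERTK and AXL on tumor macrophages are studied as brakes on the immune response to tumors.

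The 3 TAM receptors are members of 1 family but stood at very different levels in these libraries, Axl and Mertk high and Tyro3 near the lower limit of detection, and for this reason the 250 bases before their start sites are shown from RefSeq on GRCm38.p6, each read 5′ to 3′ on the strand of its gene. The capitals mark GC boxes, the letters GGGCGG on either strand, which some zinc finger factors of the Sp family bind. The windows lie at chr2:128698665-128698914 on the plus strand for Mertk, at chr7:25788734-25788983 on the minus strand for Axl and at chr2:119799264-119799513 on the plus strand for Tyro3.
Mertk: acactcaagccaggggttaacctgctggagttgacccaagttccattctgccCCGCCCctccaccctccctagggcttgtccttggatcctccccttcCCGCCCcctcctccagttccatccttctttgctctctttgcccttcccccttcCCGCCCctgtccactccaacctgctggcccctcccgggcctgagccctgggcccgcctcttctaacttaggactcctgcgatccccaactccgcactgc
Axl: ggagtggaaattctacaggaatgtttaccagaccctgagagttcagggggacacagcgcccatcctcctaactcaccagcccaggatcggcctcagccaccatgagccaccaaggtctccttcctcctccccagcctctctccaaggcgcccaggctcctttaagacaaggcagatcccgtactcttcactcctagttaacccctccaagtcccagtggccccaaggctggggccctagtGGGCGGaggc
Tyro3: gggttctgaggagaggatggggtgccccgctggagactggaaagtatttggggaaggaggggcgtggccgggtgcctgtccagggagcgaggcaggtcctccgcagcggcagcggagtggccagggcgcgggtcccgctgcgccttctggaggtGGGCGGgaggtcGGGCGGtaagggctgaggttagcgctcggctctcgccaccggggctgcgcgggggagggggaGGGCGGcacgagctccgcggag
The Tyro3 window had a GC content of 73.2% and 24 CG dinucleotides, against 63.6% and 7 in the Mertk window and 60.0% and 5 in the Axl window. Over 32851 such windows of RefSeq promoters the medians were 52.4% and 6 CG. Mertk and Tyro3 had 3 GC boxes each and Axl had 1, and 32.7% of all windows held at least 1. All 10 genes had a window in the table, 11 windows in all, since Elmo1 has a pair of start sites. None of the 11 held the AP-1 motif TGACTCA, which stood in 4.46% of all windows. These are descriptions of letters and not of binding.

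The order of the 10 genes was led by Itgb5 in both libraries. In the vehicle library Itgb5 was followed by Elmo1, Axl, Gas6, Mertk, Pros1, Mfge8 and Dock1, all above 10 RPKM. In the clodronate library the order was Itgb5, Gas6, Elmo1, Mertk, Axl, Dock1, Pros1 and Mfge8. By their counting intervals, Gas6 (47.1 to 52.0 RPKM) could not be placed above or below Mertk (47.5 to 51.2 RPKM) in the vehicle library, and the interval of Axl (50.4 to 54.3 RPKM) overlapped both. In the clodronate library the neighbours Gas6 and Elmo1 overlapped (74.2 to 80.9 and 73.5 to 77.9 RPKM), as did Dock1 and Pros1 (21.4 to 23.6 and 19.0 to 22.0 RPKM). Tyro3 and Timd4 stood below 1 RPKM in both libraries.

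**Figure D2:**
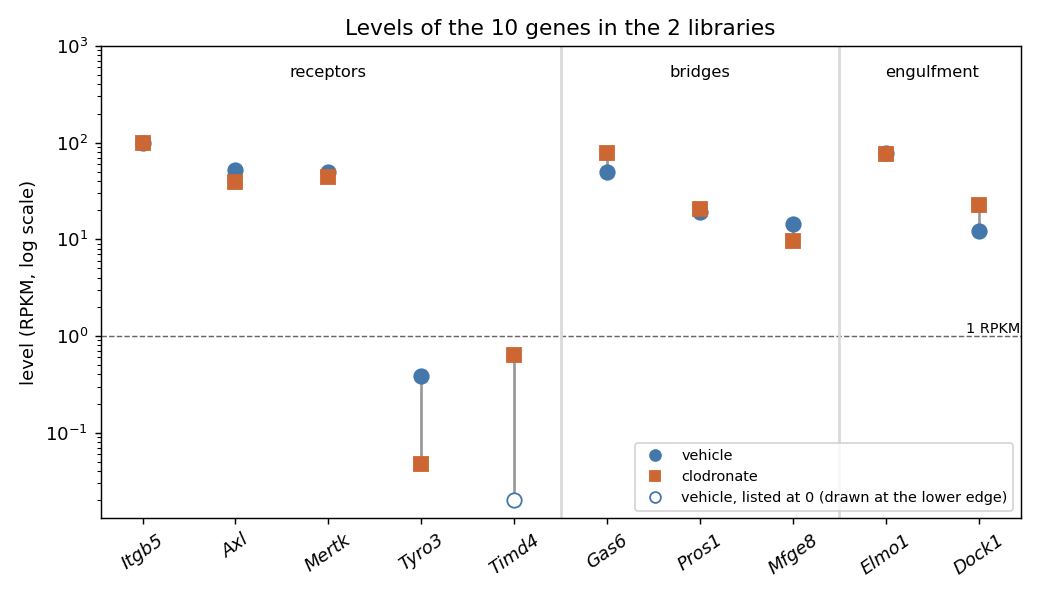
Level of each of the 10 genes (RPKM, log scale) in the vehicle library (blue circles) and the clodronate library (orange squares), with the genes grouped by role and 1 library per condition. The symbols of 8 genes lie above the dashed line at 1 RPKM, with small gaps between libraries, while Tyro3 and Timd4 lie below it, and the open circle marks the 0 listed for Timd4 in the vehicle library.

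Of the 10 genes, 8 averaged 1 RPKM or more across the pair of libraries, as did 10982 of all 22886 genes, and were kept for ratios. Ratios are given as log2((clodronate RPKM + 1)/(vehicle RPKM + 1)), where the added 1 makes the change of a low gene look smaller than it is. Of the 8 genes, 4 were higher and 4 lower in the clodronate library, or 3 higher and 5 lower once ratios were corrected for GC content and transcript length. None was 3-fold higher, against 2.86% of all genes kept, and none was 3-fold lower, against 2.32%. None was 2-fold higher, against 6.95% of all genes kept, or 2-fold lower, against 6.77%. Their ratios had a median of -0.02 beside 0.02 for all genes kept, and the median distance from 0 was 0.27 beside 0.39, or 0.34 beside 0.35 after that correction. With 8 genes, a count of 0 at these shares says little about them as a group.

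**Figure D3:**
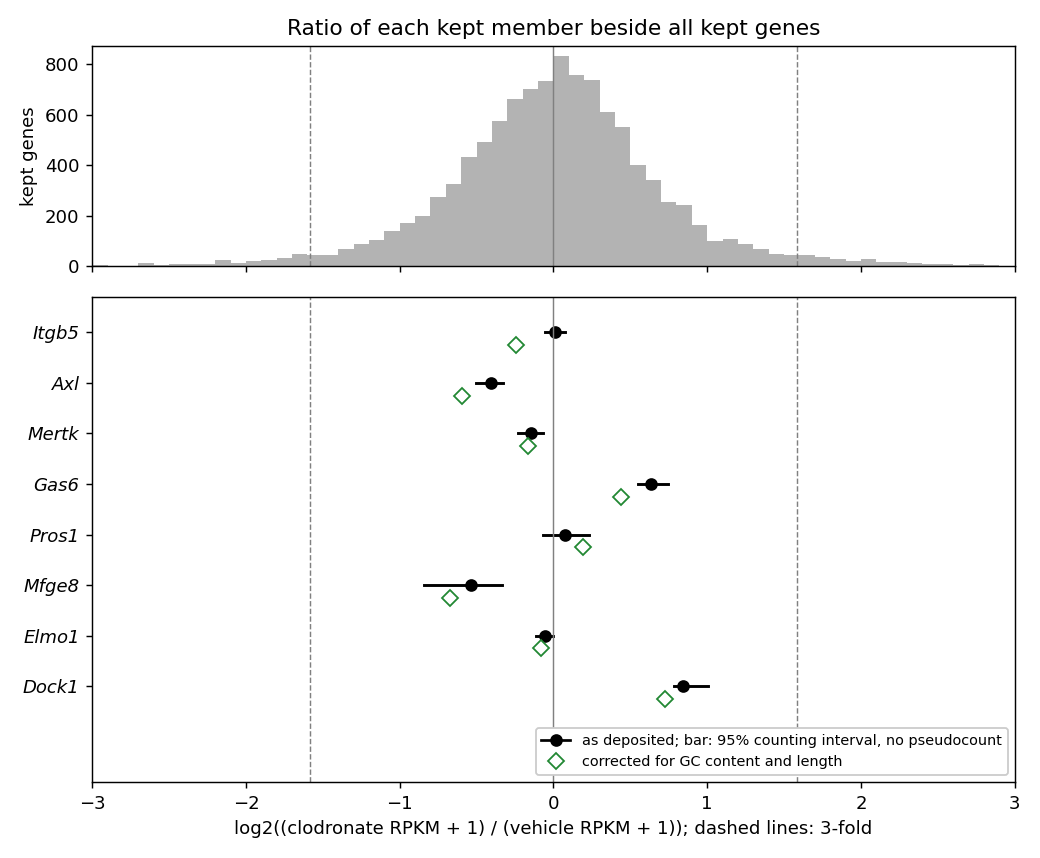
Log2 ratio of clodronate over vehicle for the 8 genes kept (lower panel, black points with 95% counting intervals computed without the pseudocount, and green diamonds for the ratio corrected for GC content and transcript length) and the number of all genes kept in each 0.1 step of the log2 ratio (upper panel, from -3 to 3). The 8 ratios lie between -0.54 for Mfge8 and 0.84 for Dock1, inside the dashed lines at 3-fold.

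Among the receptors, the integrin subunit β5 was highest and had nearly the same level in both libraries. Itgb5 (chr16:33829751-33949424, coordinates of the deposited files on mm9 here and below) had 99.4 RPKM in the vehicle library and 99.97 RPKM in the clodronate library. These levels came from about 4059 and 3330 reads over a mean length of its 2 transcripts. The ratio was 1.01 (0.961 to 1.05), and its log2 ratio of 0.01 was -0.24 after correction for GC content and length. Only 7.37% of genes kept were higher in the vehicle library and 7.44% in the clodronate library. The integrin αv subunit Itgav, with which β5 pairs, had 32.0 and 32.5 RPKM, or 0.322 and 0.325 of the Itgb5 level within each library. Itgb3, whose protein pairs with αv in the other integrin that binds MFG-E8, had only 0.820 and 1.43 RPKM. The transcript of β5 thus outnumbered that of β3 in both libraries.

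Axl, a TAM receptor that binds GAS6 and is often induced by inflammation and interferon, was lower in the clodronate library. Axl (chr7:26541519-26573752) had 52.3 RPKM in the vehicle library and 39.3 RPKM in the clodronate library, from about 2839 and 1738 reads over a mean length of its 3 transcripts. The ratio of vehicle over clodronate was 1.33 (1.25 to 1.41), and the log2 ratio of -0.40 was matched or exceeded in size by 48.4% of all genes kept. The difference lay outside the counting error but was common among genes of such a level, since 37.5% of 2432 genes with a mean within 2-fold of that of Axl differed as much. The 12 interferon-stimulated genes went the other way, with 11 higher and 1 lower, beside 5664 higher and 5318 lower of all genes kept. The median log2 ratio of the 12 was 1.34. They summed to 151 RPKM in the vehicle library and 401 RPKM in the clodronate library. Whether interferon had a part in the difference of Axl was not tested.

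Mertk, the TAM receptor of mature macrophages, differed less than Axl. Mertk (chr2:128524733-128627924) had 49.3 RPKM in the vehicle library and 44.5 RPKM in the clodronate library, from 2782 and 2047 reads, with a ratio of 0.902 (0.852 to 0.956). Of all genes kept, 79.7% had a log2 ratio at least as far from 0 as its -0.15. Within a library, where no scaling enters, Axl had 1.06 times the level of Mertk under vehicle and 0.884 times under clodronate, so that their order was exchanged, although their counting intervals overlapped under vehicle.

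Tyro3, the third TAM receptor, which is best known from the nervous system, was near the limit of detection. Tyro3 (chr2:119625250-119643839) had 0.383 RPKM in the vehicle library and 0.0470 RPKM in the clodronate library, which are 20 and 2 reads. The ratio of vehicle over clodronate by RPKM was 8.16, with a counting interval from 1.98 to 72.0. Of 1180 single-transcript loci with 10 to 40 vehicle reads, 324 (27.5%) were as low in the clodronate library relative to the vehicle library. That count includes loci listed at 0 in the clodronate library, which can be failed estimates. Their part in it was not counted, so the share does not say how frequent a gap like that of Tyro3 was. Mertk had 129 times the level of Tyro3 under vehicle and 947 times under clodronate, the latter against only 2 reads.

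Timd4, which encodes TIM-4, a phosphatidylserine receptor of tissue-resident macrophages, was also at the limit. Timd4 (chr11:46624301-46657835) was at 0 in the file of the vehicle library and at 0.631 RPKM in the clodronate library, which is 14 reads (7.65 to 23.5). An exact 0 in such a file can be a failed estimate, and no fold is given. Of 1046 single-transcript loci listed at 0 in the vehicle library only, 256 (24.5%) had at least as many reads in the clodronate library. The related receptor Havcr1 (TIM-1) was listed at 0 in both, and Havcr2 (TIM-3), which also binds phosphatidylserine, had 65.3 and 47.6 RPKM.

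The bridges differed in direction. Gas6, the ligand of all TAM receptors, was higher in the clodronate library, Mfge8, the bridge to αv integrins, was lower, and Pros1, which encodes protein S, the plasma anticoagulant that also binds TYRO3 and MERTK, was nearly level. Gas6 (chr8:13465374-13494535) had 49.5 RPKM in the vehicle library and 77.5 RPKM in the clodronate library, from 1599 and 2041 reads. The ratio was 1.57 (1.47 to 1.67), with a log2 ratio of 0.64. Of 1828 genes with a mean within 2-fold of that of Gas6, 7.39% were as high or higher by this ratio and 16.2% differed as much in either direction. Corrected for GC content and transcript length, the log2 ratio of Gas6 was 0.44.

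Pros1 (chr16:62854160-62929166) had 19.3 RPKM in the vehicle library and 20.4 RPKM in the clodronate library, from 824 and 711 reads. The ratio of 1.06 had an interval from 0.956 to 1.17, which includes no difference. Gas6 was the higher of the TAM ligands in both libraries, at 2.56 times the level of Pros1 under vehicle and 3.79 times under clodronate. Both ligands need vitamin K to become active, and Vkorc1 and Ggcx, which recycle the vitamin and carboxylate the ligands, had 75.8 and 98.9 RPKM and 4.79 and 5.14 RPKM.

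Mfge8 (chr7:86278654-86293946) had 14.3 RPKM in the vehicle library and 9.52 RPKM in the clodronate library. These levels came from about 366 and 199 reads over a mean length of its 2 transcripts. The ratio of vehicle over clodronate was 1.498 (1.26 to 1.79), and 33.1% of 4271 genes of a similar level differed as much. Mfge8 was also low against its receptor subunit, with 0.144 of the Itgb5 level under vehicle and 0.0953 under clodronate.

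The level of ligand against receptor differed between the libraries. Gas6 had 0.946 of the Axl level under vehicle and 1.97 times the Axl level under clodronate. Against Mertk, Gas6 had 1.004 and 1.74 times the level, and Pros1 had 0.392 and 0.459 times the level. These are ratios of transcripts within a library, so they do not depend on how the libraries were scaled to each other, and they have no replicate. They were not corrected for GC content and transcript length. That correction took the log2 ratio of Gas6 from 0.64 to 0.44, of Axl from -0.40 to -0.59 and of Mertk from -0.15 to -0.17.

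Axl, Gas6 and Mfge8 are also made by fibroblasts, and the fibroblast markers differed between the libraries. Of the 12 markers, 9 were kept, and 7 of these were lower under clodronate and 2 higher (8 and 1 after correction for GC content and length). Their median log2 ratio was -0.70, and 3 were at least 2-fold lower, as were 6.77% of all genes kept. They summed to 162 RPKM in the vehicle library and 79.8 RPKM in the clodronate library, most of it from Dcn (77.3 and 28.4 RPKM) and Col3a1 (62.1 and 34.4 RPKM), while Pdgfrb was at 0 under vehicle and Col1a1 was at 2.32 and 5.40 RPKM. Axl and Mfge8 were lower along with these markers and Gas6 was higher. The part of fibroblast RNA in these 3 differences was not tested.

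The engulfment pair showed a higher level of the exchange factor and a level adaptor. Dock1, which encodes DOCK180, the factor that loads RAC1 with GTP, was the gene of the 10 with the largest log2 ratio among those kept. Dock1 (chr7:141862370-142365330) had 12.1 RPKM in the vehicle library and 22.5 RPKM in the clodronate library, from 1098 and 1665 reads. The ratio was 1.86 (1.72 to 2.01), with a log2 ratio of 0.84 and of 0.72 after correction for GC content and length. Of all genes kept, 19.0% differed as much. Of 4081 genes of a similar level, 6.47% were as high or higher and 12.3% differed as much in either direction. The locus is the only one of the 10 that another locus overlaps, and that gene, Fam196a, was listed at 0 in both libraries.

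Elmo1, the adaptor that holds DOCK proteins to the membrane and that carries the signal from RHOG, was among the highest. Elmo1 (chr13:20182376-20700222) had 78.7 RPKM in the vehicle library and 75.7 RPKM in the clodronate library, from 5700 and 4468 reads, with a ratio of 0.961 (0.924 to 0.9999). The Elmo1 level was 6.51 times that of Dock1 under vehicle and 3.37 times under clodronate. Dock2, the relative of Dock1 that leukocytes use, had 78.5 and 91.6 RPKM, which is 6.50 and 4.08 times the Dock1 level. Elmo1 and Dock2 were therefore at like levels in the vehicle library, far above Dock1.

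The other genes of the pathway were grouped in 8 lists with 120 genes, of which 103 were kept. Under clodronate 61 were higher and 42 lower, beside 5664 higher and 5318 lower of all genes kept. After correction for GC content and length the split was 54 higher and 49 lower. Their median log2 ratio was 0.06, or 0.02 after that correction. With 1 added to each RPKM, none was 3-fold higher (2.86% of all genes kept) or lower (2.32%), and none was 2-fold lower (6.77%). Socs1 alone was 2-fold higher (6.95%). It is a feedback inhibitor of cytokine receptors that TAM signalling induces, and had 0.714 RPKM in the vehicle library and 3.15 RPKM in the clodronate library. The correction for GC content and length took its log2 ratio from 1.28 to 0.94, which is less than 2-fold. The same correction took C1qc from -0.96 to -1.05, which is more than 2-fold lower. On plain RPKM, with nothing added, Socs1 was past 3-fold (1 gene higher and 0 lower, against 5.1% and 4.63% of all genes kept). Past 2-fold were then 3 genes higher, Socs1, Pecam1 and Sphk1, against 9.81%, and 2 lower, Pparg and Bcar1, against 9.77%.

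**Figure D4:**
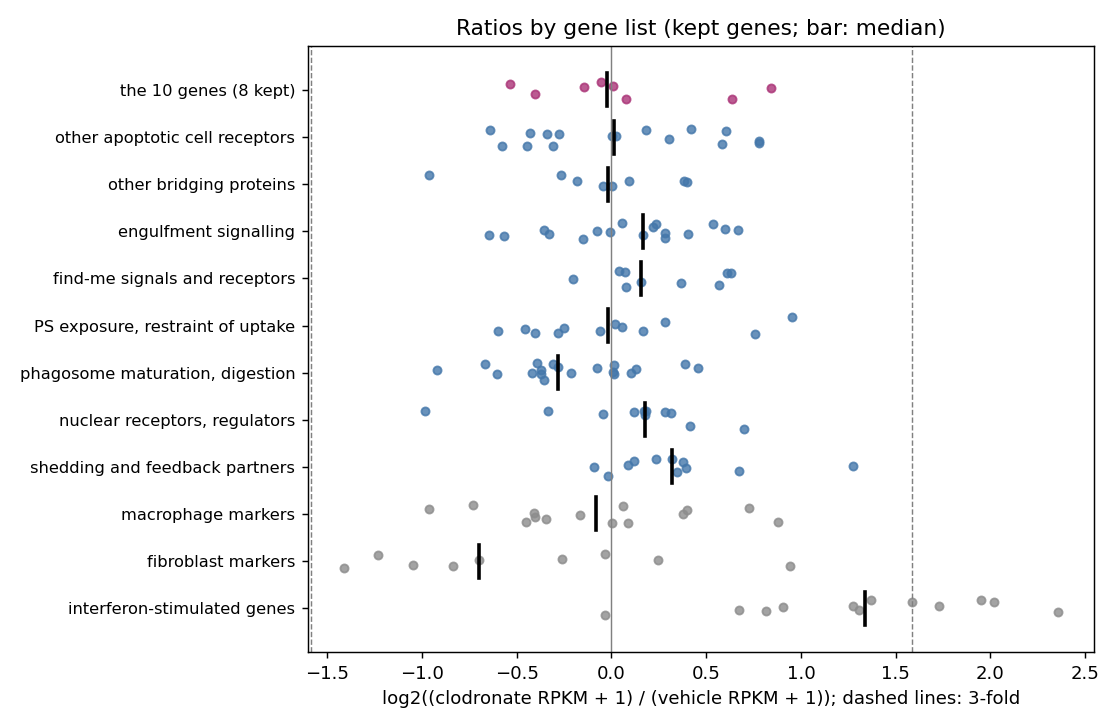
Log2 ratio of clodronate over vehicle (horizontal axis) for each gene kept of the 10 genes (purple), of the 8 other lists of the pathway (blue; PS is phosphatidylserine) and of 3 marker lists (grey), with each list's median as a black bar. The 8 pathway medians lie between -0.28 and 0.32, while the fibroblast markers have a median of -0.70 and the interferon-stimulated genes 1.34.

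Other receptors for apoptotic cells were split, with 9 higher and 7 lower of 16 kept among 20, and a median log2 ratio of 0.01. The most abundant was Cd14, the lipopolysaccharide coreceptor that also tethers dying cells, with 1560.1 RPKM in the vehicle library and 1045 RPKM in the clodronate library. The scavenger receptors Msr1 (295 and 365 RPKM), Stab1 (175 and 268 RPKM) and Cd93 (112 and 168 RPKM) and the calreticulin receptor Lrp1 (225 and 386 RPKM) were higher in the clodronate library. The phospholipid receptors Cd300a (26.3 and 16.5 RPKM), Cd300lf (44.1 and 32.6 RPKM) and Cd300lb (59.3 and 47.8 RPKM) were lower there, each by less than 2-fold. Receptors that were listed at 0 in the vehicle library were Stab2, Adgrb1 (listed as Bai1) and Havcr1.

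Other bridging proteins had 8 genes kept of 13, 4 higher and 4 lower, with a median of -0.02. Some of them were among the most abundant transcripts of the pathway, while 5 of the 13 were listed at 0 in both libraries. Edil3, the lowest of those kept, had 1.78 and 1.46 RPKM. The 3 genes of C1q, which coats dying cells, differed in direction, with C1qa at 1185 and 1563 RPKM, C1qb at 3372 and 3384 RPKM and C1qc at 3984 and 2043 RPKM. The subunits of C1q form 1 protein complex, and the log2 ratio of C1qc, -0.96, was the lowest of its list. Thbs1, a bridge from dying cells to CD36, had 413 and 343 RPKM, and Calr, the eat-me signal calreticulin, had 372 and 485 RPKM. Gas6, Pros1 and Mfge8 were below each of these 5 bridges in both libraries.

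Engulfment signalling had 17 genes kept of 21, 10 higher and 7 lower, with a median of 0.17 and of 0.05 after correction. The GTPases stood highest, Rhog at 388 and 404 RPKM, Rhoa at 383 and 345 RPKM and Rac1 at 210.5 and 209.6 RPKM, each with little difference between the libraries. Elmo2 had 25.1 and 30.8 RPKM, less than Elmo1 in both, and Elmo3 stayed below 1 RPKM. Dock1 differed more between the libraries than the other DOCK genes kept, Dock2, Dock4 (15.2 and 14.3 RPKM) and Dock5 (9.75 and 11.1 RPKM).

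Regulators that are known to control the uptake genes had 11 genes kept of 12, 8 higher and 3 lower, with a median of 0.18. After correction the split was 5 higher and 6 lower, with a median of -0.02. The liver X receptor Nr1h3, which induces Mertk, had 27.2 and 31.0 RPKM, while Pparg had only 5.47 and 2.27 RPKM. Nr4a1 and Klf4 were the most abundant, with 303 and 294 RPKM and 220.0 and 268 RPKM. Gata6, the regulator of peritoneal macrophages, was at 0.0485 RPKM in the vehicle library and listed at 0 in the clodronate library.

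Partners of receptor shedding and feedback had all 11 genes kept, 9 higher and 2 lower, with a median of 0.32 and of 0.15 after correction. The proteases that release the outer part of MERTK and AXL had 42.0 and 53.5 RPKM for Adam17 and 59.2 and 55.4 RPKM for Adam10. Ifnar1, the interferon receptor chain through which AXL acts, had 46.2 and 50.3 RPKM. Socs3, the other feedback inhibitor, had 58.5 and 77.3 RPKM. The signalling adaptor Grb2 had 90.1 and 88.8 RPKM. The shedding proteases thus had levels like those of Axl and Mertk themselves in both libraries.

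Markers of other cells were compared beside these values. The macrophage markers were split evenly, 7 higher and 7 lower, with a median log2 ratio of -0.08. Monocyte markers summed to 289 and 430 RPKM, with 4 of 7 higher. Proliferation genes were higher for 11 of 12, beside 5664 higher and 5318 lower of all genes kept. Their sums were 260 and 364 RPKM, of which Pcna, the 1 gene that was lower, had 176 and 167 RPKM. Neutrophil markers summed to 46.1 and 46.0 RPKM, dendritic cell markers to 6.77 and 18.8 RPKM, endothelial markers to 3.34 and 8.31 RPKM, T and NK cell markers to 13.5 and 20.8 RPKM, B cell markers to 8.08 and 4.62 RPKM, and erythroid markers to 0.218 and 1.92 RPKM. Some of these sums rested on few genes. Of the markers kept, 3 of 4 for dendritic cells, 2 of 2 for endothelial cells and 1 of 2 for T and NK cells were higher. Most of the dendritic cell sum under clodronate came from Batf3 (0 and 5.77 RPKM) and Cd209a (1.25 and 8.68 RPKM). Among T and NK cell markers, Cd2 had 2.39 and 11.1 RPKM and Cd4 had 10.3 and 7.72 RPKM, while Cd3e and Cd3g were listed at 0 in both. The part of other cells in the levels of the 10 genes was not tested.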

How the data were processed

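For each library the authors deposited RPKM values for 23170 loci. The submitters' processing notes name CASAVA 1.8.2, TopHat2 2.0.9, Bowtie 0.12.9, Cufflinks 2.2.1 and Cuffdiff, with the genome build mm9, and do not say whether strand was used. As RPKM are normalized values, count models were not applied. For 26 loci whose symbol reads as a number, genes were named by RefSeq accession. Lines of the same symbol were summed, for 174 genes, which left 22886 genes. Ratios were taken as log2(RPKM + 1) differences for genes that averaged 1 RPKM or more. Starts were counted from 0 in the files and are given counted from 1.

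Read totals were sought on a grid as those that turn the low values (0.5 to 8.5 reads) of loci with 1 transcript of at least 800 nt into whole reads. Totals fitted on part of the loci gave whole reads for 73.9% and 74.2% of the low loci in the rest. The most frequent ratio of vehicle to clodronate values, 0.8162, corresponds to 1.23 times as many reads in the vehicle library, as do the totals. A read here may be a fragment. Precision therefore depends on the level, from 2 reads for Tyro3 to 5700 for Elmo1.

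Lengths and GC content came from GENCODE M21 transcripts (GRCm38) with the same RefSeq accessions, for 98.7% of genes kept, and corrected ratios had the median of their bin subtracted, first over 10 bins by GC content and then over 10 by length. The median log2 ratio went from -0.24 in the bin of lowest GC content to 0.29 in the highest. Coordinates of the builds were not combined.

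With 1 library per condition no test was made and no p-value is given. The 10 genes, the 8 pathway lists and the 12 marker lists were chosen with earlier results of these data known. Each of the 10 genes is named. Of the pathway lists any gene could be named, first those past 2-fold with a mean of at least 5 RPKM, then the 2 of highest mean in each list. None was past 2-fold at that level. Listed genes that are not named enter the counts only. The steps were tested on simulated data. The alternatives were other pseudocounts, filters, scalings, fold thresholds and lines per symbol and the corrections. Python 3.11.15, numpy 2.4.6, pandas 2.3.3, scipy 1.17.1 and matplotlib 3.10.9 were used.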

Additional observations from a re-analysis of the deposited data

How the results depend on the processing

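With 1 library a condition, samples could be neither paired nor left out. None of the 8 genes kept was 3-fold higher or lower under any of the 10 alternatives run for these counts, of which 1 was a 2-fold threshold. Their median log2 ratio went from -0.02 to -0.12 with the correction for GC content and transcript length, with 3 genes higher and 5 lower in place of 4 and 4. The correction also took Axl to -0.59, Gas6 to 0.44, Dock1 to 0.72 and Itgb5 to -0.24. Over the alternatives Gas6 ranged from 0.43 to 0.65, Dock1 from 0.72 to 0.89, Axl from -0.59 to -0.40, Mfge8 from -0.74 to -0.54, Mertk from -0.21 to -0.10, Pros1 from 0.02 to 0.23 and Elmo1 from -0.12 to -0.01, each with its sign kept in the 5 that could change it (centring, scaling and the 3 corrections). Itgb5, from -0.24 to 0.01, changed sign in all 5. The corrections for GC content only and for length only, and ratios and counts without a pseudocount, were chosen after seeing the data. Without a pseudocount 560 of all genes kept were 3-fold higher and 508 lower, in place of 314 and 255, and 1 and 0 of the other pathway genes in place of 0 and 0. Depth limits Tyro3 (20 and 2 reads) and Timd4 (14 reads in the clodronate library), and no alternative bears on differences between mice.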

Other observations

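The steps before and after uptake were described by 3 further lists. Find-me signals and their receptors, which guide phagocytes to dying cells, had 9 genes kept of 10. Under clodronate 8 were higher and 1 lower, beside 5664 higher and 5318 lower of all genes kept, and the median log2 ratio was 0.15. The exception was Gpr132, a receptor linked to lysophosphatidylcholine, with 139.8 and 121 RPKM. With 1 added to each RPKM, none was 2-fold higher (6.95% of all genes kept) or 2-fold lower (6.77%). On plain RPKM, Sphk1 (0.707 and 1.53 RPKM) was past 2-fold, as were 9.81% of all genes kept. P2ry6, a receptor for nucleotides from dying cells, had 141 and 183 RPKM, and Cx3cr1, the fractalkine receptor, had 98.3 and 103 RPKM. Its ligand Cx3cl1 was at 0 in the file of the vehicle library and at 0.605 RPKM under clodronate.

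Genes that expose phosphatidylserine or restrain uptake had 12 kept of 13, 6 higher and 6 lower, with a median of -0.02. Cd47, the don't-eat-me signal, had 92.5 and 67.0 RPKM, and its receptor on phagocytes Sirpa had 264 and 321 RPKM. Lilrb4, an inhibitory receptor, was the most abundant of the list with 1002 and 824 RPKM. Of the caspase-activated scramblase Xkr8 there was little, 0.252 and 0.815 RPKM, while the calcium-activated scramblase Ano6 had 51.7 and 58.1 RPKM.

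Genes of phagosome maturation and corpse digestion had 19 kept of 20, 7 higher and 12 lower under clodronate, with a median of -0.28. After correction for GC content and length the median was -0.19, with 5 higher and 14 lower. None was 2-fold higher (6.95% of all genes kept) or 2-fold lower (6.77%). The early endosome GTPase Rab5a had 31.8 and 16.3 RPKM, and Mon1a and Ccz1, which form the complex that exchanges RAB5 for RAB7, had 7.67 and 4.46 RPKM and 23.4 and 15.1 RPKM. Mon1b of the same list was not lower, with 4.69 and 5.12 RPKM. Rab7 itself was at 633 and 639.9 RPKM and the lysosomal membrane protein Lamp1 at 1011 and 1016 RPKM. The DNase of the phagolysosome, Dnase2a, went the other way, with 37.2 and 51.5 RPKM.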
